A study of Mus musculus with 8 samples.

Results

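Cells remove superoxide, hydrogen peroxide and lipid peroxides with a small set of enzymes, and the genes described here encode those enzymes in the mouse heart. They were chosen by gene symbol alone and comprise catalase, the superoxide dismutases, the glutathione peroxidases, the peroxiredoxins with sulfiredoxin, the thioredoxins and their reductases, the glutaredoxins, the enzymes that make and recycle glutathione, the glutathione transferases and the quinone reductase Nqo1. In all, 51 of the 17911 genes measured belonged to the set, and each had a value in every heart. The symbol rule used no measured value, although earlier results of these data were known when it was set.

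RNA was sequenced from the whole hearts of wild-type C57Bl6/J mice, 4 male (replicates 1, 3, 4 and 5) and 4 female (replicates 1 to 4), with no treatment named and the age given as 4 to 6 weeks. All 8 hearts carried the same batch label. The title of the study names the RNA helicase DDX3X and the female heart, and the comparison of these libraries was female against male. The authors had scaled the read counts of each heart by its own size factor, which gives the normalised read counts below, and each heart held between 51.7 M and 75.7 M reads. All 10 cardiomyocyte markers were present in every heart, with summed normalised counts of 5083134 to 5534953 in females and 4915350 to 5342172 in males. In such bulk samples, fewer cells of a type and less RNA per cell cannot be told apart.

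Superoxide dismutases turn superoxide into hydrogen peroxide, and catalase, peroxiredoxins and glutathione peroxidases then remove the peroxide. Peroxiredoxins are recharged by thioredoxin, which thioredoxin reductase renews with NADPH, while glutathione peroxidases spend glutathione, which glutathione reductase renews, also with NADPH. Glutathione transferases join glutathione to reactive molecules such as lipid aldehydes. The heart, which makes much of its energy by mitochondrial respiration, relies on the mitochondrial forms of several of these enzymes.

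To compare levels between genes, normalised counts were divided by the length of each gene's exons, giving normalised counts per kb. The lipid peroxide reductase Gpx4 stood highest, at 12437 ± 858 per kb (SD, n = 8 hearts), beside the secreted peroxidase Gpx3 at 12296 ± 1181 per kb, a difference within their spread. The microsomal transferase Mgst3 reached 10393 ± 533 per kb and the mitochondrial peroxiredoxin Prdx3 reached 10185 ± 391 per kb, which also lay within each other's spread. Next came Prdx5, a peroxiredoxin of mitochondria, cytosol and peroxisomes, at 8081 ± 396 per kb. The most abundant member of the Gstm (mu class) transferases, Gstm1, stood at 6885 ± 413 per kb. Catalase (Cat) reached 5414 ± 170 per kb and the cytosolic peroxiredoxin Prdx2 reached 5320 ± 146 per kb. Exon lengths cover all annotated isoforms, so a gene with a long, little-used isoform is placed too low on this scale.

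At the other end, 6 transferases lay under 100 normalised counts per kb: Gsta3, Gstm6, Gstt3, Gsto2, Gsta1 and Mgst2, the last at 4.94 ± 2.36 per kb. Variation between hearts differed widely as well. The SD over the 8 hearts was 1.97% of the mean for the mitochondrial glutaredoxin Glrx2 and 2.08% for the mitochondrial thioredoxin Txn2, but 47.8% for Mgst2 and 28.2% for Gsta1. The better expressed microsomal transferase Mgst1 varied by 15.7%. The median SD within a sex was 0.08 on the log2 scale for the 51 genes and 0.11 for all genes.

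**Figure D1:**
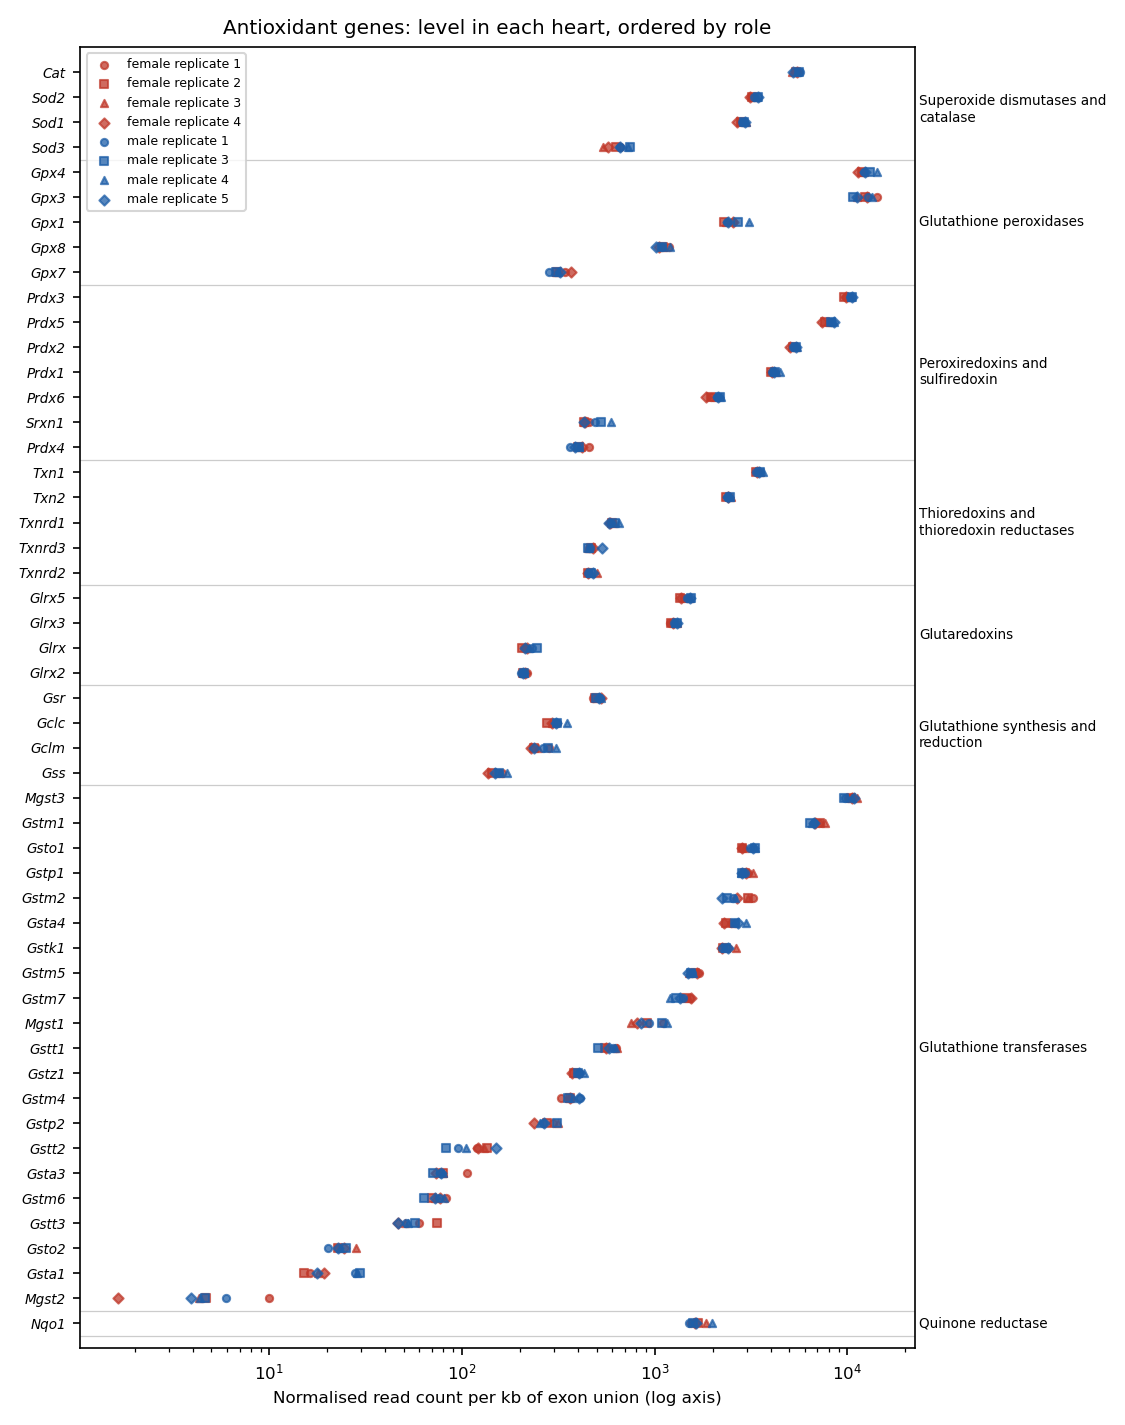
Normalised read count per kb of exon (log axis) of each of the 51 genes in each of the 8 hearts, grouped by role. Gpx4, Gpx3, Mgst3 and Prdx3 have the highest means, from 10185 to 12437 per kb, and Mgst2 has the lowest, 4.94.

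Female and male hearts were compared with limma over all 17911 genes, with Benjamini-Hochberg adjusted p-values. A gene was called when its adjusted p was under 0.05. The glutathione transferase Gsto1 was the single gene of the 51 to be called, and it was lower in females. No member was called higher by limma or by edgeR, against 4 at an unadjusted p under 0.05 and 3 by DESeq2. Of all genes, limma called 0.475% higher and 0.687% lower in females. DESeq2 called 305 of the 17911 genes higher and 385 lower. At an unadjusted p under 0.05, 4 members (7.84%) were higher, against 7.84% of all genes. At the same threshold 12 members (23.5%) were lower in females, against 8.16% of all genes. Without male replicate 4 that last count was 7 members against 6.30% of all genes, and without female replicate 2 it was 5 against 6.76%. The values of the 2 sexes did not overlap for 4 members that were higher in females and 4 that were lower, where 4.52% and 4.82% of all genes had such values. The log2 difference, female minus male, was negative for 31 members (60.8%) and positive for 20, where 49.1% of all genes were negative. When scaled by total reads, 28 members and 43.7% of all genes were negative. The median over the members was -0.04, beside 0.00 for all genes.

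**Figure D2:**
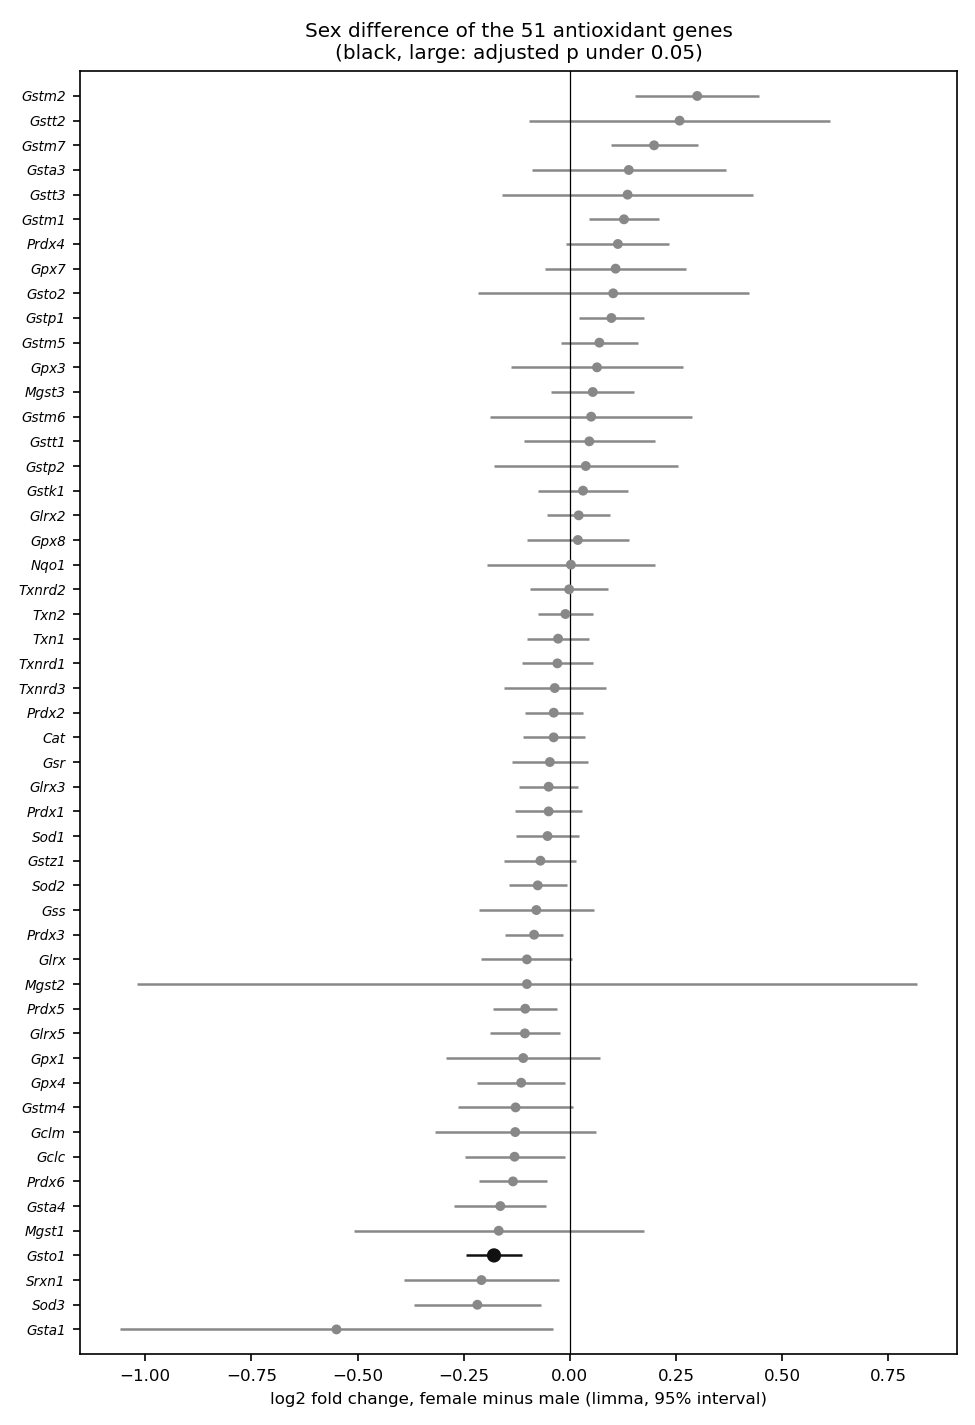
Log2 fold change, female minus male, of the 51 genes with its 95% interval from limma, in order of size. Gsto1, drawn in black, is the member that passed the adjusted threshold, and Gstm2 has the highest positive value, 0.30.

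The transferases and the other genes lay on different sides of 0 as groups, which is a description with no test. Of the 30 members that are not transferases, 24 (80.0%) had a negative log2 difference, and the median was -0.05. At an unadjusted p under 0.05, 9 of these (30.0%) were lower in females and 0 higher. Of the 21 transferases, 14 had a positive and 7 (33.3%) a negative difference, and the median was 0.05. At an unadjusted p under 0.05, 4 transferases (19.0%) were higher in females and 3 (14.3%) lower. Of all genes, 49.1% had a negative difference, and 7.84% were higher and 8.16% lower at that threshold.

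Gsto1, an omega class transferase that reduces glutathione mixed disulfides and dehydroascorbate, lies at chr19:47854970-47864790 on the plus strand (mm10). Its normalised counts were 5759, 5738, 5946 and 5759 in female replicates 1 to 4 and 6315, 6725, 6691 and 6538 in male replicates 1, 3, 4 and 5. All 4 males were above all 4 females, and the female values other than replicate 3 were nearly equal. The female mean was 5801 ± 97.8 and the male mean was 6567 ± 187 (SD, n = 4), so Gsto1 fell by 0.18 on the log2 scale in females (SE 0.03, 95% interval -0.25 to -0.11, limma adjusted p = 0.0198). The adjusted p in the authors' deposited table was 5.2e-05. The call was lost without female replicate 2 (limma adjusted p = 0.0761), without male replicate 3 (0.0643) and without male replicate 4 (0.0616), while without each other heart it was 0.0179 to 0.0475. No 50-base stretch of its exons occurs in another annotated gene. The neighbouring omega class gene Gsto2 was expressed at a low level, with 53.3, 53.3, 66.0 and 57.2 normalised counts in females and 47.6, 58.5, 54.5 and 53.1 in males, overlapping ranges (log2 difference 0.10, limma adjusted p = 0.793).

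The sequence before the Gsto1 start site is shown because it belongs to the called gene. It is the 250 bases at chr19:47854723-47854972, plus strand, 5′ to 3′, from RefSeq on GRCm38.p6.
Gsto1: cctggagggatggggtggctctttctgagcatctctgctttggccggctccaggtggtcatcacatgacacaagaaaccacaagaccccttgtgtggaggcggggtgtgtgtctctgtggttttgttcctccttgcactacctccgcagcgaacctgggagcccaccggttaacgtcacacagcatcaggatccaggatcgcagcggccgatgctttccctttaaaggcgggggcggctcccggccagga
It was searched on both strands, together with the 50 bases after the start, for the core of the antioxidant response element, which binds the transcription factor Nrf2, written TGACNNNGC (GCNNNGTCA on the other strand). These letters were not in this window. They were in the windows of 9 of the 45 members matched in RefSeq (20.0%), and of 13.99% of 27025 genes. The full palindrome of the oestrogen response element was in 0 of the 45, against 0.0740% of genes, and the palindrome of the androgen and glucocorticoid response element in 0 of the 45, against 0.537% of genes.

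The mu class transferases, which conjugate glutathione to electrophiles, form a cluster on chromosome 3 that spans 149 kb and holds 6 members, Gstm5, Gstm7, Gstm6, Gstm2, Gstm1 and Gstm4. None was called by limma or edgeR with all hearts and no covariate, while 3 had an unadjusted p under 0.05 with a higher female level. The same 3, Gstm1, Gstm2 and Gstm7, were called higher by DESeq2 and in the authors' deposited table. Over the members, the log2 fold changes of DESeq2 and of that table differed by at most 7.6e-06, so these calls are not separate results. Gstm2 (chr3:107981702-107986453, minus strand) had normalised counts of 5459, 5132, 5149 and 4493 in females and 4289, 3979, 4407 and 3753 in males. The lowest female value lay just above the highest male value. The means were 5058 ± 405 and 4107 ± 297 (SD, n = 4), a log2 difference of 0.30 (95% interval 0.15 to 0.45, limma adjusted p = 0.0668). Gstm2 passed the threshold without female replicate 4 (limma adjusted p = 0.0186) and with total reads as a covariate (0.38, limma adjusted p = 0.00164). Over the 22 alternative settings, Gstm2 was called in 4 and not called in 18.

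Gstm7 had 2446, 2340, 2385 and 2475 normalised counts in females and 2258, 2078, 1923 and 2161 in males, a log2 difference of 0.20 (95% interval 0.10 to 0.30, limma adjusted p = 0.0707). It passed without male replicate 1 (limma adjusted p = 0.0478) and without male replicate 5 (0.0438). Over the 22 alternative settings, Gstm7 was called in 3 and not called in 19. Gstm1 had 10491, 10679, 11234 and 9964 in females and 9853, 9396, 9650 and 9861 in males, a log2 difference of 0.13 (limma adjusted p = 0.129). In both genes every female heart was above every male heart. About 18.9% of the 50-base stretches of Gstm1 exons occur in another gene, mostly the pseudogene Gstm2-ps1, so its reads are less certain than those of Gstm2, with 5.65%. Gstm5 and Gstm6 had log2 differences of 0.07 and 0.05, with overlapping sexes, and Gstm4 differed in the other direction, by -0.13 (limma adjusted p = 0.339). Gstm4 had 559.7 normalised counts in female replicate 1 and 615 to 619 in the other females, against 606 to 696 in males. Summed over the 6 genes, females had 20883 ± 741 and males 18677 ± 462 normalised counts (SD, n = 4). Of 10 fibroblast markers, limma called 2 higher in females, Mgp (0.37, limma adjusted p = 0.000123) and Lum (0.30, limma adjusted p = 0.00285). Over the 10, 6 had a positive and 4 a negative log2 difference, with a median of 0.03. The summed fibroblast markers overlapped, at 201618 to 224254 normalised counts in females and 199682 to 209078 in males. Gsn weighs heavily in that sum, with 121032 of the 224254 in female replicate 1. No marker was at 0 in a heart, and the part of the fibroblast markers in the Gstm values was not tested.

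The 250 bases before the Gstm2 start are printed as those of the mu class gene with the largest log2 difference, from RefSeq on GRCm38.p6, chr3:107986421-107986670, minus strand, 5′ to 3′.
Gstm2: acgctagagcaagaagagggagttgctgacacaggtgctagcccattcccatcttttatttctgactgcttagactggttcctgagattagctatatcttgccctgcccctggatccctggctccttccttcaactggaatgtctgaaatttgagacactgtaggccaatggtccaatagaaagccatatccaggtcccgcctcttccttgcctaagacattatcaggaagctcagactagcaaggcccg
The antioxidant response element core was not in its window either, whereas the windows of its neighbours Gstm5 and Gstm7 each held it. Those matches are shown with 10 bases on either side and the core in capitals, for Gstm5 from chr3:107895802-107895830 (plus strand) and for Gstm7 from chr3:107931725-107931753 (minus strand).
Gstm5: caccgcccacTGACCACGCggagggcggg
Gstm7: tctgaagaccTGACAAAGCgaagccaatc
The 2 genes had log2 differences of 0.07 and 0.20, so a match was present in a gene with overlapping sexes as well as in a gene without overlap.

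**Figure D3:**
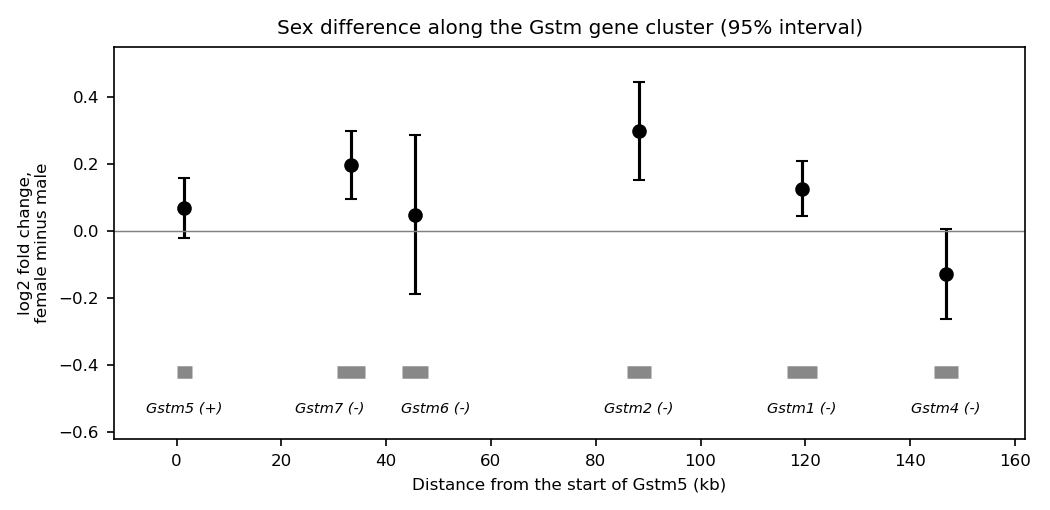
Log2 fold change, female minus male, with 95% interval from limma, of the 6 Gstm genes against distance from the start of Gstm5 in kb. Grey bars mark the genes and the sign in brackets the strand. Gstm7, Gstm2 and Gstm1 have intervals above 0, and Gstm4 at the far end has a negative value.

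Among the remaining transferases, Gsta4, which conjugates the lipid aldehyde hydroxynonenal, had 3138, 2985, 3272 and 2898 normalised counts in females and 3291, 3295, 3755 and 3434 in males. The sexes did not overlap, by a small margin at female replicate 3, and the log2 difference was -0.16 (limma adjusted p = 0.138). Gstp1, the pi class enzyme, had 4733, 4574, 5001 and 4604 in females and 4553, 4383, 4325 and 4406 in males, a log2 difference of 0.10 without overlap (limma adjusted p = 0.203), and 33.7% of its 50-base stretches occur in another gene. Gsta1 had the largest difference of any member, -0.55, but at 14.5 to 28.4 normalised counts per heart (limma adjusted p = 0.275). Male replicate 5 had 16.9 normalised counts of Gsta1, within the female range, and the other males 26.5 to 28.4. Reads of Gsta1 cannot be assigned with certainty, since 90.5% of its 50-base stretches occur in other genes. Mgst3, the most abundant transferase, had 11118 to 12242 normalised counts in females and 10522 to 11927 in males (log2 difference 0.05, 95% interval -0.04 to 0.15). The other transferases outside the Gstm cluster had log2 differences from -0.17 (Mgst1) to 0.26 (Gstt2), each with overlapping sexes. Gsta3 had its highest value, 462 normalised counts, in female replicate 1, with 308 to 347 in the other hearts.

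**Figure D4:**
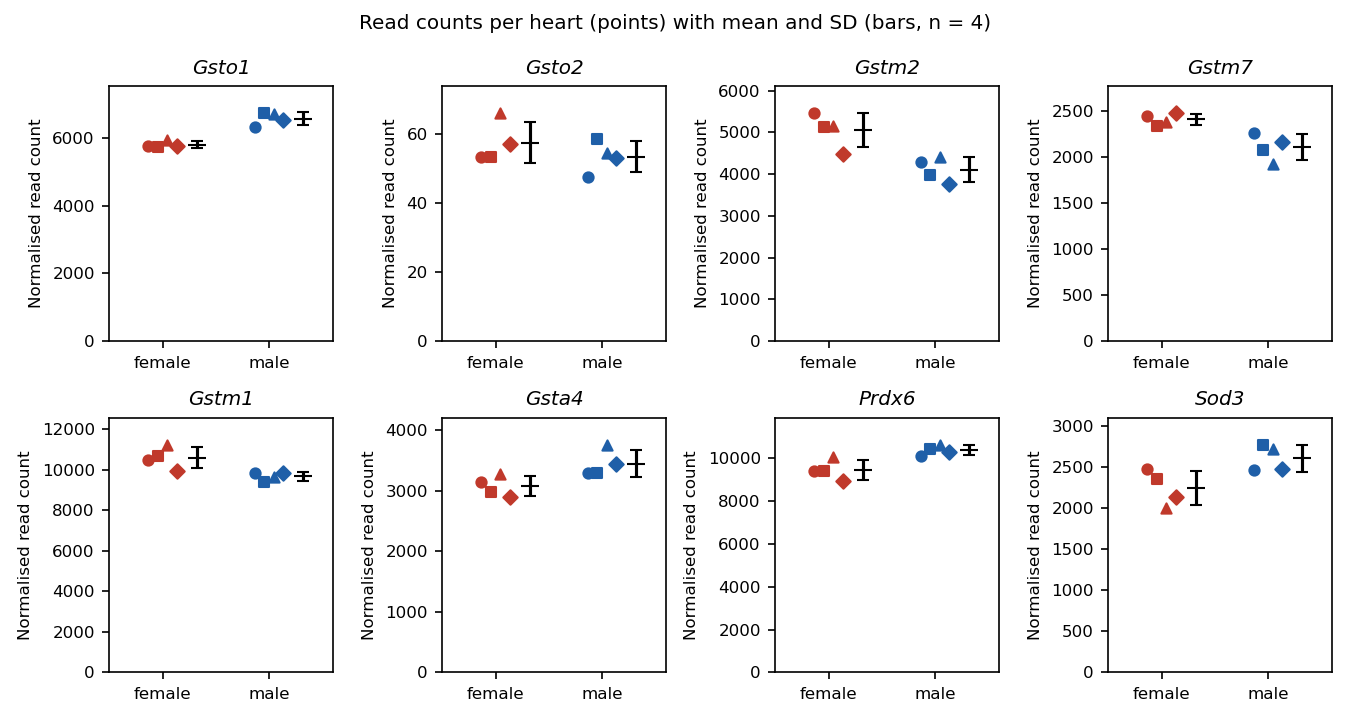
Normalised read counts in each heart of Gsto1, Gsto2, Gstm2, Gstm7, Gstm1, Gsta4, Prdx6 and Sod3, with mean and SD (n = 4 per sex) and each axis starting at 0. Marker shapes run in replicate order within a sex. Gsto1, Gsta4 and Prdx6 are lower and the Gstm genes higher in every female than in every male, while Gsto2 and Sod3 overlap.

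Peroxiredoxins reduce peroxides through a reactive cysteine, and sulfiredoxin (Srxn1) restores peroxiredoxins that have been overoxidised. Of the 7 genes, 6 had a negative log2 difference. None was called by limma, 4 had an unadjusted p under 0.05 with a lower female level, and DESeq2 called 1 lower, Prdx6. Prdx6, a peroxiredoxin with a single active cysteine that also has phospholipase activity, had 9401, 9412, 10054 and 8925 normalised counts in females and 10080, 10446, 10622 and 10293 in males. The sexes did not overlap, though female replicate 3 came close to male replicate 1. The log2 difference was -0.13 (95% interval -0.21 to -0.05, limma adjusted p = 0.110). Prdx5 had 17245, 16330, 17214 and 15845 in females and 17504, 17637, 18249 and 18253 in males, again with no overlap (log2 difference -0.11, limma adjusted p = 0.165). An opposite-strand gene, Trmt112, covers 19.1% of Prdx5 exons, and with the strand setting of the counting not known its reads could enter the Prdx5 count.

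The mitochondrial Prdx3 overlapped, with 14133 to 15281 in females and 15264 to 15713 in males (log2 difference -0.08, limma adjusted p = 0.212). Srxn1 had 1294, 1205, 1215 and 1227 normalised counts in females and 1377, 1478, 1676 and 1214 in males, so the males spread more than the females and male replicate 5 lay within the female range (log2 difference -0.21, limma adjusted p = 0.254). Without male replicate 5, Srxn1 was called lower in females (-0.29, limma adjusted p = 0.0282). The cytosolic Prdx1 and Prdx2 differed by -0.05 and -0.04. Prdx4, a peroxiredoxin of the endoplasmic reticulum encoded on chromosome X, was the exception in sign, with a log2 difference of 0.11 (95% interval -0.01 to 0.23, limma adjusted p = 0.348).

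All 4 genes of the dismutase and catalase group had negative log2 differences. None was called by limma, edgeR or DESeq2, and 2 had an unadjusted p under 0.05. Sod3, the dismutase secreted into the extracellular matrix, had 2482, 2360, 2010 and 2145 normalised counts in females and 2465, 2776, 2729 and 2475 in males. Female replicate 1 lay above 2 of the males, and the log2 difference was -0.22 (95% interval -0.37 to -0.07, limma adjusted p = 0.153). The mitochondrial Sod2 had 31319 to 33467 in females and 32892 to 34529 in males (log2 difference -0.08, limma adjusted p = 0.266), with 21.0% of its 50-base stretches found in other genes. Cytosolic Sod1 differed by -0.05 and catalase by -0.04, and their 95% intervals included 0.

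Glutathione peroxidases showed no common direction. Of the 5 genes, 2 had negative and 3 positive log2 differences, 0 were called by limma, edgeR or DESeq2, and 1 had an unadjusted p under 0.05. That gene was Gpx4, at 20896, 20573, 21154 and 19669 normalised counts in females and 20935, 22533, 24532 and 21243 in males (log2 difference -0.11, limma adjusted p = 0.265). Female replicate 3 lay above male replicate 1, and male replicate 4 was the highest. Reads of Gpx4 are uncertain, since 34.7% of its 50-base stretches occur elsewhere, mostly in the pseudogene Gpx4-ps2. Gpx1, the cytosolic enzyme, had 3300 to 3690 in females and 3434 to 4435 in males (log2 difference -0.11, 95% interval -0.29 to 0.07). Gpx3 had its highest value, 25701 normalised counts, in female replicate 1, where the summed fat cell markers were also highest, at 24355 against 5299 to 10846 in the other hearts. Their part in the Gpx3 value was not tested. The endoplasmic reticulum enzymes Gpx7 and Gpx8 differed by 0.11 and 0.02.

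The thioredoxin genes differed little between the sexes. All 5 log2 differences lay between -0.04 and 0.00, with those of Txn2 and Txnrd2 at 0.00 and 0.01 when scaled by total reads, and 0 were called by limma, edgeR or DESeq2 or had an unadjusted p under 0.05. For the cytosolic thioredoxin Txn1 the 95% interval was -0.10 to 0.05, and for the mitochondrial Txn2 it was -0.08 to 0.05. The interval of the cytosolic reductase Txnrd1 was -0.11 to 0.05 and that of the mitochondrial Txnrd2 was -0.09 to 0.09.

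Among the 4 glutaredoxins, which reduce disulfides with glutathione or carry iron-sulfur clusters, 0 were called by limma, edgeR or DESeq2 and 1 had an unadjusted p under 0.05. This was Glrx5, needed for mitochondrial iron-sulfur cluster assembly, with 5206, 4973, 5576 and 5028 normalised counts in females and 5434, 5686, 5597 and 5632 in males (log2 difference -0.11, limma adjusted p = 0.202). Female replicate 3 lay within the male range and the other females below it. The log2 differences of Glrx, Glrx3 and Glrx2 were -0.10, -0.05 and 0.02, with 95% intervals that included 0.

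Glutathione is made by glutamate-cysteine ligase, a complex of the catalytic subunit Gclc and the modifier Gclm, and by the synthetase Gss, and is kept reduced by Gsr. All 4 log2 differences were negative, 0 were called by limma, edgeR or DESeq2, and 1 had an unadjusted p under 0.05. Gclc had 1170, 1037, 1099 and 1099 normalised counts in females and 1179, 1167, 1320 and 1157 in males, with male replicate 4 the highest (log2 difference -0.13, limma adjusted p = 0.268). Gclm differed by -0.13 with a wider interval, -0.32 to 0.06, Gss by -0.08 (-0.22 to 0.06) and Gsr by -0.05 (-0.14 to 0.04). Nqo1, which reduces quinones, had 2407, 2607, 2865 and 2525 in females and 2337, 2459, 3091 and 2540 in males, a log2 difference of 0.00 (95% interval -0.19 to 0.20).

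Genes that act as partners or as cytosolic and mitochondrial counterparts were also compared as a log2 ratio of read counts within each heart, which removes the scaling of the heart. The ratio of Sod1 to Sod2 was -1.52 ± 0.02 in females and -1.55 ± 0.03 in males (SD, n = 4), and that of Gclc to Gclm was -0.50 ± 0.09 and -0.50 ± 0.10. No pair passed an exact two-sided permutation test, whose smallest possible p is 0.0286. Adjusted over the 5 pairs, a single pair at that p would reach 0.143, so 1 differing pair alone could not have passed. Raw p-values over the 5 pairs ran from 0.2 for Txn1 to Txn2 to 1 for Gclc to Gclm, and Benjamini-Hochberg adjusted values from 0.571 to 1. Differences of the mean log2 ratio, female minus male, ran from -0.03 (Txnrd1 to Txnrd2) to 0.02 (Sod1 to Sod2).

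Male replicate 4 held the highest value of 18 of the 51 genes (35.3%), while it was highest for 13.9% of all genes. This count was made after the values were seen and is a description. The 18 include Srxn1, 36.6% above the median of the other 7 hearts, Gpx1 (27.7%), Mgst1 (26.6%), Gclm (24.6%), Nqo1 (22.4%), Gpx4 (17.2%) and Gclc (14.1%). The remaining 11 are Sod1, Gpx8, Prdx1, Prdx2, Prdx6, Txn1, Txnrd1, Gsr, Gss, Gsta4 and Gstz1. They lay from 3.83% (Prdx2) to 14.8% (Gsta4) above that median, so many of these leads were small. For Gsr the value was 1445 normalised counts, against 1443 in the next highest heart. Of 27 other genes that control or accompany the oxidant response, male replicate 4 was highest for 14, and another heart for the rest. The 14 lay from 4.25% (Cbr1) to 36.3% (Trim16) above that median. Among them, named after their values were seen, were Hmox1, the inducible haem oxygenase (31.7%), Osgin1 (33.3%) and Sqstm1, an autophagy receptor (23.5%). Fth1 (7.88%) and Hmox2 (7.44%) were nearer to the median. The lowest values were gathered in female replicate 4, with 13 members (25.5%, all genes 12.7%), and female replicate 2, with 12 (23.5%, all genes 11.4%). Male replicate 4 also had the most reads, 75.7 M, and the highest summed macrophage markers, 24860 normalised counts, and their part in these values was not tested.

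**Figure D5:**
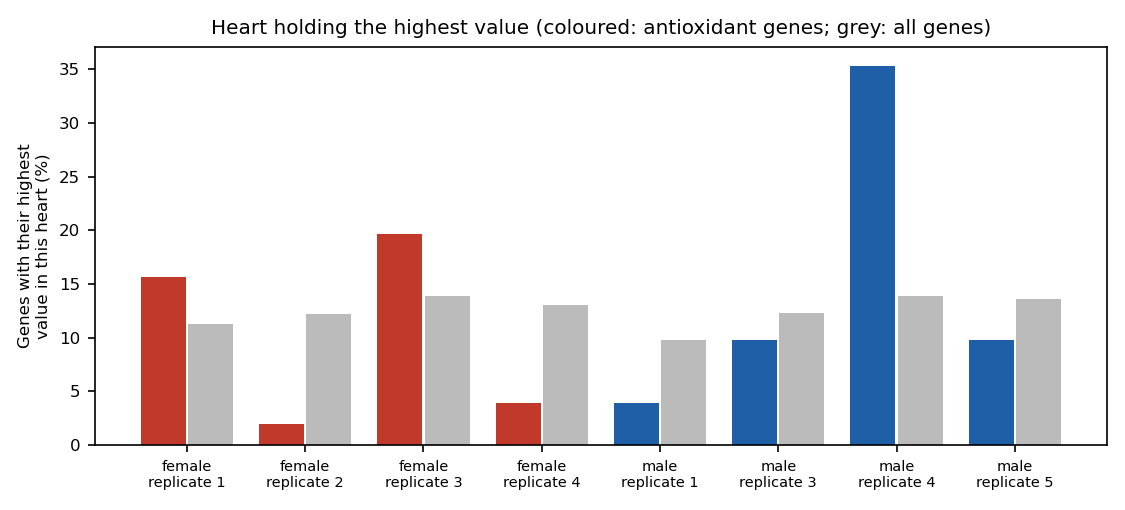
Percent of genes whose highest value lies in each heart, for the 51 antioxidant genes (coloured bars, red female and blue male) and for all genes (grey bars). Male replicate 4 stands at 35.3% of the antioxidant genes and 13.9% of all genes.

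Of those 18 genes, grouped after the values were seen, 14 had a promoter window, and 6 of the 14 held the antioxidant response element core. Of the 33 genes highest in another heart 31 had a window, and 3 held it, beside 13.99% of all genes with a window. Genes with more windows, such as Mgst1 with 2 and Txnrd1 with 3, had more places for a match. The difference between the groups was not tested. The matches of the 6 genes highest in male replicate 4 are shown with 10 bases on either side and the core in capitals, from RefSeq on GRCm38.p6. They lie at chr2:152105542-152105570 for Srxn1, chr3:122245413-122245441 for Gclm, chr4:116685456-116685484 for Prdx1, chr6:138140461-138140489 for Mgst1, chr10:82859104-82859132 for Txnrd1 and chr16:90220696-90220724 for Sod1, all on the plus strand.
Srxn1: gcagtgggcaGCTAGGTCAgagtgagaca
Gclm: gctcccgggcGCACCGTCAactctcacga
Prdx1: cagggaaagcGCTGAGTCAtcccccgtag
Mgst1: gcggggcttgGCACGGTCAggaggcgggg
Txnrd1: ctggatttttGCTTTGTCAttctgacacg
Sod1: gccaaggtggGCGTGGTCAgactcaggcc
A match of these letters is a description and not a binding site.

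Genes around these enzymes were counted in 6 further lists, with no test of a list. For comparison, limma called 0.475% of all genes higher and 0.687% lower in females. At an unadjusted p under 0.05 these shares were 7.84% and 8.16%, and some of the counts below lie near them. Among the 27 redox controls and inducers, 0 were called by limma, edgeR or DESeq2, 4 had an unadjusted p under 0.05 with a lower female level and 0 with a higher one, and 19 had a negative log2 difference, with a median of -0.06. The values with the smallest p were those of Hmox1 (-0.28, limma adjusted p = 0.155) and Mafg, a small Maf protein that pairs with Nrf2 (-0.14, limma adjusted p = 0.158). Of 18 genes that supply NADPH, 0 were called by limma and 2 by DESeq2. At an unadjusted p under 0.05, 2 (11.1%) were higher and 1 (5.56%) lower in females. Nnt, the gene of the mitochondrial transhydrogenase, had 32635, 34676, 34646 and 32915 normalised counts in females and 31307, 30843, 29916 and 31478 in males. The sexes did not overlap (log2 difference 0.13, limma adjusted p = 0.0881). Read counts over the whole gene do not show whether the Nnt transcript is complete or gives a working enzyme, so no statement on NADPH supply follows. The folate enzyme Mthfd2 differed by -0.48 (limma adjusted p = 0.0542).

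Of 25 measured genes of glutathione turnover and transport, limma and edgeR each called 1 higher and 0 lower, while DESeq2 called 1 higher and 4 lower. At an unadjusted p under 0.05, 3 were higher and 5 lower in females. Anpep, a membrane aminopeptidase that can split the dipeptide left from glutathione breakdown, had 1289, 1206, 1144 and 1330 normalised counts in females and 1017, 996, 984 and 934 in males. Every female was above every male, and Anpep rose by 0.34 on the log2 scale in females (limma adjusted p = 0.0114). Dpep1, a membrane dipeptidase of the same breakdown path, had 2509, 2647, 2354 and 3073 in females and 3398, 3237, 3472 and 3819 in males. Every female was below every male, and the log2 difference was -0.40 (limma adjusted p = 0.0574). In the 30 measured genes of thioredoxin-fold proteins and repair enzymes, 0 were called by limma, 5 had an unadjusted p under 0.05 and DESeq2 called 2, Msrb1 (-0.22, limma adjusted p = 0.126) and Pdia6 (0.25, limma adjusted p = 0.183). In the 21 measured selenoproteins and selenocysteine genes, 0 were called by limma, edgeR or DESeq2. At an unadjusted p under 0.05, 5 (23.8%) were higher and 1 (4.76%) lower in females. The smallest p-values were those of Selenoi, a phospholipid synthesis enzyme (0.15, limma adjusted p = 0.116), and Selenok, a protein of the endoplasmic reticulum (0.10, limma adjusted p = 0.116).

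Among 19 measured sources of oxidants, 1 was called, and it was lower in females. Ncf1, a subunit of the phagocyte NADPH oxidase, had 369, 313, 322 and 328 normalised counts in females and 442, 484, 459 and 448 in males, and fell by 0.46 on the log2 scale in females (limma adjusted p = 0.0097). Beside this, the 12 macrophage markers were all negative, with a median of -0.28. Of these, 3 were called lower, Csf1r, C1qa and C1qb, and their sum was 16991 to 19881 normalised counts in females and 20947 to 24860 in males, with no overlap. The part of the macrophage markers in the values of Ncf1, or of any antioxidant gene, was not tested.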

How the data were processed

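Per the labels' protocols, each heart was extracted separately with a small RNA kit, although its molecule label is total RNA. The deposited values are a signal, counts of reads scaled by the authors with a size factor for each heart, and 100% of them were whole multiples of 1 read (tolerance 0.001). Per the submitters' processing notes the build was mm10, while its aligner, counter, strand setting and test were not given in the sources used here. The authors' deposited table also holds their log2 fold changes and p-values. For the members, the DESeq2 fold changes found here matched theirs within 7.6e-06.

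The members, gene lists and naming rule were chosen with earlier results of these data known. Named were members called, at an unadjusted p under 0.05 or without overlap, the 4 with the highest mean in each role, and in each pathway list the called genes or otherwise the 2 with the smallest p. Other names were chosen after their values were seen. The main test was limma 3.58.1 (R 4.3.3, trend and robust) on log2(value + 1), female minus male. A gene needed a value of at least 1 in 4 hearts, which removed 0 genes, and the fit was tested on simulated data. On this scale the folds of low genes come out too small. Replicates are separate hearts per the labels. Alternatives were edgeR 4.0.16 and DESeq2 1.42.0 on recovered reads, limma-voom, other scalings, pseudocounts and filters, replicate blocks, depth as a covariate and leaving out each heart. Exon lengths came from GENCODE vM21 and promoters, 250 bases before to 50 after the start, from RefSeq (GRCm38.p6). Ratios used scipy 1.17.1.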

Additional observations from a re-analysis of the deposited data

Results flagged for a closer look

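In 6 of 102 groups of 4 hearts, 1 heart stood apart from the other 3 by Dixon's criterion, which chance meets in about 1 group in 20. Txnrd3, a reductase best known from testis, had 1519 normalised counts in male replicate 5 and 1282 to 1311 in the other males. Txnrd2 had 2209 in female replicate 3 and 1979 to 1991 in the other females. Gclc had 1320 in male replicate 4 and 1157 to 1179 in the other males. Gsto1 had 5946 in female replicate 3 and 5738 to 5759 in the other females, the value nearest to the males. Gstm4 had 559.7 in female replicate 1 and 615 to 619 in the other females. Gsta1 had 16.89 in male replicate 5 and 26.5 to 28.4 in the other males.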

How the results depend on the processing

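The count of members called was the same as reported, 0 higher and 1 lower, with edgeR under TMM and RLE factors, limma-voom, scaling by total reads, both other pseudocounts and all 3 filters. DESeq2 called 3 higher and 2 lower (5 in all) and 12 pathway genes where limma called 2. Of all genes, DESeq2 called 690 and limma 208. Members called higher were 1 with total reads as a covariate (2 called in all). Under the rule of a log2 fold change over 0.6 with an unadjusted p under 0.05, 0 members and 1 pathway gene passed, so the Gsto1 difference of -0.18 did not. Of genes with a mean of at least 100, 4 pathway genes were called. Leaving out each heart in turn gave 0 to 2 members higher, 0 to 2 lower, 0 to 4 in all, 2 to 10 pathway genes, and 77 to 516 of all genes against 208, with 85 without male replicate 4.

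The replicate block was fitted by title number and by library code number. Deviations of same-numbered hearts correlated at 0.17, -0.05 and -0.11 by title and at 0.17, -0.05 and 0.12 by code. Female and male hearts with different numbers correlated at -0.18 to 0.15. So few pairs cannot show whether the numbers pair the hearts. With the block by title, 0 members were called higher and 0 lower, with 5 pathway genes and a Gsto1 difference of -0.18 (limma adjusted p = 0.105). With the block by code, 1 member was higher (Gstm2, 0.33, limma adjusted p = 0.0460) and 0 lower, 1 pathway gene was called (Dpep1, lower), the median over members was -0.0114, and Gsto1 was at -0.16 (limma adjusted p = 0.252). Neither Anpep nor Ncf1 was called with either block, and both were called as each heart was left out. Members lower at an unadjusted p under 0.05, a count added after seeing the data, were 5 with the block by title, where 7.44% of all genes were, and 3 of 51 with the block by code, where 5.39% of all genes were, against 12 without a block and 8.16%.

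Log2 differences near 0 changed sign. Nqo1 was at -0.00408 by edgeR with TMM factors, -0.00379 with RLE factors, -0.00347 by DESeq2, -0.000538 by limma-voom, -0.00952 with the block by title, and from -0.0474 to 0.0870 as hearts were left out. By total reads Txn2 was at 0.00437 and Txnrd2 at 0.0128. The block by code gave 0.00943 for Txn2, 0.00966 for Txnrd2, 0.00158 for Txn1 and 0.000137 for Txnrd1. By title, Txnrd2 was at 0.0252 and Gpx8 at -0.0122, and with the covariate Txnrd1 was at 0.00304. Leaving out hearts gave -0.0271 to 0.00147 for Txn2, -0.0404 to 0.0125 for Txnrd2, -0.0555 to 0.00172 for Txnrd1 and -0.0164 to 0.0614 for Gpx8. The log2 ratio of Gclc to Gclm was 0.0466 with the block by title and -0.0382 to 0.0418 as hearts were left out, that of Txnrd1 to Txnrd2 -0.0665 to 0.00634 and that of Prdx1 to Prdx2 -0.0256 to 0.00687. The cause of these changes was not tested. With 4 hearts per sex, low genes such as Mgst2 (95% interval -1.02 to 0.82) allow no statement on small differences.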
